A study of Mus musculus with 6 samples.

Results

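In bone marrow RNA from mice with multiple myeloma, a plasma cell cancer, 10 genes of apoptotic cell uptake were examined, taken by symbol from the 17173 genes of the deposited table. They were the TIM receptors Havcr1, Timd2 and Timd4, the TAM receptor kinases Mertk, Axl and Tyro3, the bridging ligands Gas6, Pros1 and Mfge8, and the scavenger receptor Stab1. All 10 had a row, all 10 yielded reads per library, and all 10 passed the minimum mean of 10 normalized counts. The genes were selected on their deposited group means (normalized counts of the Che-1 silencing and the control group), so their differences between the groups are given as a description and without a test.

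The 6 libraries were 3 labelled Che-1 silencing (titled vkche) and 3 labelled control. All 6 carry the source name VkCHE mice and the tissue bone marrow. Che-1 is the protein of Aatf, which binds RNA polymerase II in the nucleus, and the title of the series asks about cell growth and global transcription. The labels give no strain, age, sex or agent of silencing, and name no separate mice for the replicates. The p-values thus rest only on spread among these 6 libraries, part of which may be technical. For counts per spike-in RNA that spread was pooled fully over genes of similar level, so it is not each gene's own.

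Dying cells display phosphatidylserine, a lipid that living cells keep on the inner face of their membrane. Of the TIM proteins, those of Havcr1 and Timd4 bind this lipid directly and tether the dying cell. TAM kinases bind it through Gas6 or protein S (Pros1), which need vitamin K-dependent carboxylation, and they trigger engulfment and damp inflammation. Mfge8 links the lipid to integrins of the phagocyte. In lymphoid tissue this uptake is largely the work of macrophages.

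Recovered gene reads came to 24955337, 21274291 and 14398605 for Che-1 silencing replicates 1 to 3 and 11359380, 15986622 and 17873059 for control replicates 1 to 3. Levels were read on 2 scales: as counts per spike-in RNA (the spike-in scale, in normalized counts) and as log2 level minus the library's median gene (the relative scale). On the spike-in scale the median tested gene stood 1.54 log2 units higher in those labelled Che-1 silencing, and on the relative scale 0.01. Che-1 silencing replicate 3 stood apart from replicates 1 and 2 (mean chi-square per gene 158 and 121, against 16.8 between replicates 1 and 2), and control replicate 1 from control replicates 2 and 3 (47.4 and 50.3, against 2.09 between those). Aatf showed no loss in libraries labelled Che-1 silencing (1986, 3808 and 1223 normalized counts, against 896, 396 and 421 in control libraries), which goes against the label, so directions below are only those of the label. Its spike-in difference of 1.98 log2 units (SE 0.57, limma adjusted p = 0.00215) lost its call without control replicate 2 (limma adjusted p = 0.057) or 3 (limma adjusted p = 0.058). On the relative scale the Aatf difference was 0.45 log2 units (SE 0.19, limma adjusted p = 0.143), with overlap between the groups. The X-inactivation transcript Xist had a mean of 68685 normalized counts in the authors' deposited table for the libraries labelled Che-1 silencing and 5.64 for the control libraries, so the labels' groups and the sex of the mice cannot be told apart. In whole marrow, fewer cells of a type and less RNA per cell cannot be told apart either.

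The TIM genes lie next to each other on mouse chromosome 11: among protein-coding genes of the RefSeq annotation (GRCm38.p6) the order is Timd2, Havcr1, Timd4, with none between them. Their promoters are shown because these 3 genes kept the groups apart on both scales, and those of Mertk and Axl beside them because these 2 kept a near-constant ratio to each other. Each run holds 250 bases before and 50 bases after the most upstream RefSeq start, 5′ to 3′ on the gene's strand, in GRCm38.p6. Capitals mark matches, on either strand, to GGGCGG (the GC box) or GAGGAA (a core of PU.1 and other Ets factors); Timd4 held neither. The windows are chr11:46739973-46740272 on the plus strand for Havcr1, chr11:46707055-46707354 on the minus strand for Timd2, chr11:46810549-46810848 on the plus strand for Timd4, chr2:128698665-128698964 on the plus strand for Mertk and chr7:25788684-25788983 on the minus strand for Axl.
Havcr1: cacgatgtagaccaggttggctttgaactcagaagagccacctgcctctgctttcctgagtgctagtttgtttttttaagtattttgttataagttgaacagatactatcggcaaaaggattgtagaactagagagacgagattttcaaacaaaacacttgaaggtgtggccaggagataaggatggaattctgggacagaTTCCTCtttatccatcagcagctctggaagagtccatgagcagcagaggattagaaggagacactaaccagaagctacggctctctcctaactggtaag
Timd2: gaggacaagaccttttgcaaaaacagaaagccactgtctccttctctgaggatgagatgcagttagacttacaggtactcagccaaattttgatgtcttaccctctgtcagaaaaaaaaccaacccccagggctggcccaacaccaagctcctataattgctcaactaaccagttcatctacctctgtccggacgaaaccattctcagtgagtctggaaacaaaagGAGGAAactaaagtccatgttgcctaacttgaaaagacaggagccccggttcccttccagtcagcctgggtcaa
Timd4: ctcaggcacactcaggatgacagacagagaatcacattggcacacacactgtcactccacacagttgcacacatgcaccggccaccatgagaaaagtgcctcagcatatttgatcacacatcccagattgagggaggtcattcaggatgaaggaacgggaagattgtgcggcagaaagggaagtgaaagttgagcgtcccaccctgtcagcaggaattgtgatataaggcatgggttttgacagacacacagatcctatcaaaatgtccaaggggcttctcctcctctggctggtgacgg
Mertk: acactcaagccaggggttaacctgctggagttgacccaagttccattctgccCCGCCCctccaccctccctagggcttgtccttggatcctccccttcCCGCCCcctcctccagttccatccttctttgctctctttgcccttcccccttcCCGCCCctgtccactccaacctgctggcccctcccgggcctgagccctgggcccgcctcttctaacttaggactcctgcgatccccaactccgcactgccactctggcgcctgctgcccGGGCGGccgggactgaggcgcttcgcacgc
Axl: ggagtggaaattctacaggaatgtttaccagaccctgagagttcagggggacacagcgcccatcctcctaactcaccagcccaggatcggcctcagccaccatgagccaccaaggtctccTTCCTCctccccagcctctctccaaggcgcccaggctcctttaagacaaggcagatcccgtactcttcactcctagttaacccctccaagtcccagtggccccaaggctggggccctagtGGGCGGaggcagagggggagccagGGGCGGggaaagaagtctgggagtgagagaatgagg

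GGGCGG, which 35.7% of all 32851 promoters of the table hold, stood in 6 of the 10, those of the TAM kinases Mertk, Axl and Tyro3 and of the ligands Gas6, Pros1 and Mfge8. It was in none of the TIM windows read and not in that of Stab1. Havcr1 has 3 RefSeq starts and Timd2 has 2, and only the window of the most upstream start was read. The G and C content was 43.7% for Havcr1, 47.0% for Timd2 and 50.7% for Timd4, below the median of 52.7% over all promoters. It was 66.0% for Mertk, 60.3% for Axl and 73.3% for Tyro3. GAGGAA (28.3% of all promoters) stood once each in Havcr1, Timd2, Axl, Mfge8 and Stab1. CACGTG, the E-box that MYC binds (7.15%), TGACTCA, the AP-1 element (5.2%), and TATAAA (13.6%) stood in none of the 10. A match describes letters in a window and is not a measured site.

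Havcr1 encodes TIM-1, a phosphatidylserine receptor of injured kidney epithelium and of subsets of activated T and B cells. It had 4085, 7013 and 999 normalized counts in replicates 1, 2 and 3 labelled Che-1 silencing, against 121, 92.1 and 132 in control replicates 1, 2 and 3. All 3 libraries labelled Che-1 silencing were above all 3 control libraries, with replicate 3 far below the other two. The means were 4032 ± 3007 in libraries labelled Che-1 silencing and 115 ± 20.7 in the control libraries (SD, n = 3 each). The log2 difference was 4.74 on the spike-in scale, between 4.14 and 5.54 with any single library left out. Relative to the median gene, Havcr1 stood at 2.35, 2.40 and 0.86 log2 units in libraries labelled Che-1 silencing and at -1.68, -1.35 and -0.99 in the control libraries. It was above the median gene in each library labelled Che-1 silencing and below it in each control library (relative difference 3.21, between 2.94 and 3.71 with any single library left out).

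Timd2 encodes TIM-2, a rodent receptor for H-ferritin and semaphorin 4A that is found on B cells and in liver and kidney. It was a low gene, with 295, 261 and 182 reads in libraries labelled Che-1 silencing and 31, 86 and 48 reads in the control libraries. These came to 364, 627 and 234 normalized counts in libraries labelled Che-1 silencing, against 36.3, 40.4 and 22.8 in the control libraries. The groups did not overlap, and the log2 difference was 3.51 on the spike-in scale and 1.97 on the relative scale. Relative to the median gene the libraries labelled Che-1 silencing lay close together, at -1.14, -1.08 and -1.23, whereas the control libraries spread over -3.38, -2.52 and -3.48. Timd2 and Havcr1 are close paralogs: their GENCODE transcripts share an identical stretch of 115 bases, and 3.84% of the 50-base windows of the longest Havcr1 transcript recur in a Timd2 transcript. How the authors' counting treated reads of such stretches is not given in the sources used here, so reads of either gene are partly uncertain, and those of Timd2 more, since Havcr1 had far more reads. If Havcr1 reads lay evenly along its transcript, the shared stretch would hold 127, 112 and 29.9 of them in libraries labelled Che-1 silencing, or 43.1%, 43.0% and 16.4% of the Timd2 reads there. In the control libraries it would hold 3.96, 7.53 and 10.7, or 12.8%, 8.75% and 22.3%. With that many reads taken off Timd2, an alternative chosen after seeing the data, its levels were 207, 357 and 195 normalized counts in libraries labelled Che-1 silencing, against 31.6, 36.9 and 17.7 in the control libraries. The groups still did not overlap, and the Timd2 difference was 3.10 log2 units on the spike-in scale and 1.57 on the relative scale.

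Timd4 encodes TIM-4, which tethers apoptotic cells to resident macrophages and dendritic cells. It had 1576, 2559 and 1343 normalized counts in libraries labelled Che-1 silencing and 411, 353 and 389 in the control libraries. The groups did not overlap, and the difference was 2.19 log2 units on the spike-in scale and 0.66 on the relative scale. Here Che-1 silencing replicate 3 was the highest library relative to the median gene (1.29, with 0.97 and 0.94 in replicates 1 and 2), against 0.08, 0.58 and 0.56 in the control libraries. The 3 TIM genes therefore differed among themselves in replicate 3: replicate 3 minus the mean of replicates 1 and 2, on the relative scale, was -1.51 log2 units for Havcr1, -0.11 for Timd2 and 0.33 for Timd4.

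**Figure D1:**
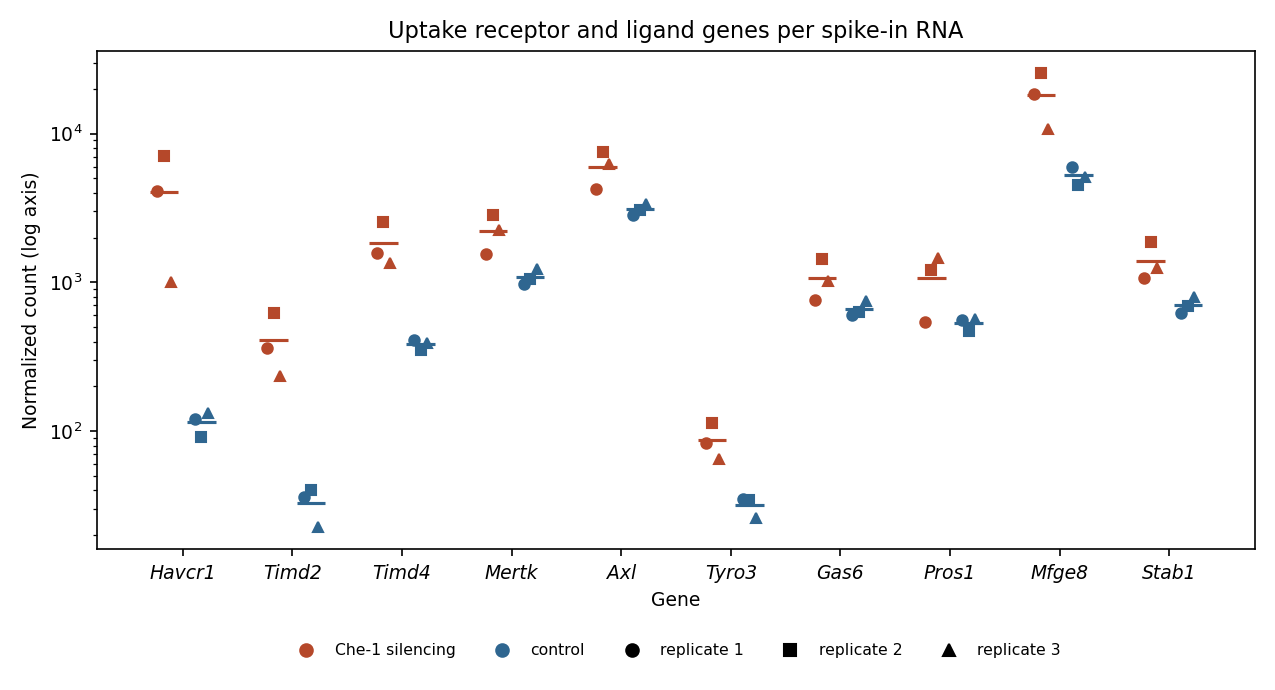
Normalized counts per library (log axis) of the 10 genes, Che-1 silencing libraries left and control libraries right for each gene, with bars at the group means. The libraries labelled Che-1 silencing sit above all control libraries for every gene but Pros1, and the gap is widest for Havcr1 (999 to 7013 against 92.1 to 132).

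The TAM kinases had smaller differences than the TIM receptors. Mertk, the kinase through which macrophages engulf apoptotic cells, had 1552, 2843 and 2244 normalized counts in libraries labelled Che-1 silencing and 974, 1057 and 1221 in the control libraries. Without overlap, this was a spike-in difference of 0.99 log2 units, less than that of the median gene. Relative to the median gene Mertk stood at 0.95, 1.10 and 2.03 in libraries labelled Che-1 silencing, against 1.33, 2.16 and 2.20 in the control libraries, and the groups overlapped. Axl, a kinase activated by Gas6 and induced by interferons, had 4249, 7520 and 6218 normalized counts in libraries labelled Che-1 silencing and 2837, 3077 and 3356 in the control libraries. Its differences, 0.92 on the spike-in scale and -0.61 on the relative scale, were close to those of Mertk (0.99 and -0.54). Tyro3, the TAM kinase best known from the nervous system, was scarcely present, with 68, 47 and 51 reads in libraries labelled Che-1 silencing and 30, 73 and 55 in the control libraries. Its relative difference of -0.13 turned positive without Che-1 silencing replicate 2 (0.01) and without control replicate 2 (0.08).

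Axl and Mertk kept a fixed proportion in every library. There were 2.74, 2.65 and 2.77 Axl reads per Mertk read in libraries labelled Che-1 silencing and 2.91, 2.91 and 2.75 in the control libraries. The highest and lowest of these 6 ratios differed 1.1-fold, while the same ratio for Havcr1 to Timd4 ran from 0.261 to 2.74. Stab1 followed the same course, at 0.690, 0.655 and 0.553 reads per Mertk read in libraries labelled Che-1 silencing and 0.636, 0.660 and 0.649 in the control libraries. Ratios of reads within a library need no spike-in. Measured as the root mean square difference of mean-centred log2 levels over the 6 libraries, Mertk and Axl were 0.05 log2 units apart, Mertk and Stab1 0.10, and Axl and Stab1 0.11. Genes outside the 10, picked out after their values were seen, lay as close: Raph1 was 0.04 from Mertk, Phactr2 0.04 and Cd300a 0.05 from Axl, and Fndc3b 0.04 from Stab1. These 6 points share 6 libraries that fall into 2 groups, so the likeness is a description.

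**Figure D2:**
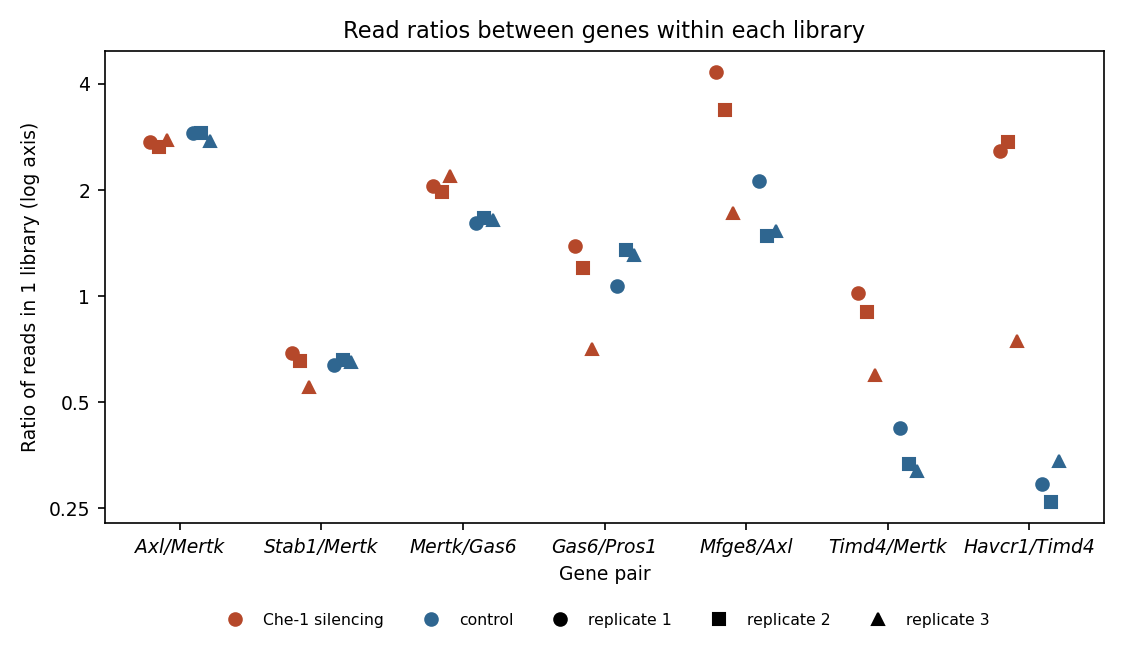
Ratios of reads between named genes within each library (log axis), Che-1 silencing libraries left and control libraries right for each pair. Axl/Mertk stays between 2.65 and 2.91 in all 6 libraries, whereas Havcr1/Timd4 runs from 0.261 to 0.341 in control libraries and from 0.744 to 2.74 in libraries labelled Che-1 silencing.

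Of the vitamin K-dependent ligands, Gas6, which activates all TAM kinases, had 758, 1445 and 1026 normalized counts in libraries labelled Che-1 silencing and 604, 633 and 745 in the control libraries. The lowest library labelled Che-1 silencing was thus barely above the highest control library, and the spike-in difference of 0.66 log2 units was the smallest among the 10 genes. The relative difference was -0.87, the lowest of the 10, with values of -0.08, 0.12 and 0.90 in libraries labelled Che-1 silencing and 0.64, 1.42 and 1.49 in the control libraries. Pros1, which encodes protein S, a ligand of Mertk and Tyro3 and a cofactor of anticoagulation, had 545, 1203 and 1449 normalized counts in libraries labelled Che-1 silencing and 563, 470 and 570 in the control libraries. It was the only gene of the 10 whose groups overlapped on the spike-in scale, because Che-1 silencing replicate 1 lay within the control range. It was also the gene with the widest relative spread in libraries labelled Che-1 silencing, at -0.56, -0.14 and 1.40, against 0.54, 0.99 and 1.11 in the control libraries. Gas6 reads per Pros1 read were 1.39, 1.20 and 0.708 in libraries labelled Che-1 silencing and 1.07, 1.35 and 1.31 in the control libraries, so Che-1 silencing replicate 3 was the one library with fewer Gas6 than Pros1 reads.

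Mfge8, a secreted opsonin made by follicular dendritic cells and macrophages, was the most abundant of the 10 genes per length of exon. Its mean level was 8528 normalized counts per kilobase in libraries labelled Che-1 silencing and 2458 in the control libraries. It had 18346, 25353 and 10695 normalized counts in libraries labelled Che-1 silencing and 6006, 4539 and 5134 in the control libraries, a difference of 1.72 log2 units. Relative to the median gene it hardly varied: 4.51, 4.25 and 4.28 in libraries labelled Che-1 silencing and 3.95, 4.26 and 4.28 in the control libraries. Mfge8 supplied 94.9%, 92.8% and 85.7% of the summed level per kilobase of the 3 ligands in libraries labelled Che-1 silencing and 87.4%, 84.5% and 83.9% in the control libraries.

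Stab1 encodes stabilin 1, a scavenger receptor of sinusoidal endothelium and of macrophages that binds phosphatidylserine. It had 1071, 1861 and 1241 normalized counts in libraries labelled Che-1 silencing and 619, 698 and 792 in the control libraries. The difference was 0.95 log2 units on the spike-in scale and -0.58 on the relative scale, where the groups overlapped. In the GENCODE annotation 333 exon bases of Stab1 are shared with Nt5dc2 on the opposite strand. The library kit marks strand, but whether counting used it is not given here, so reads of that stretch cannot be assigned with certainty.

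**Figure D3:**
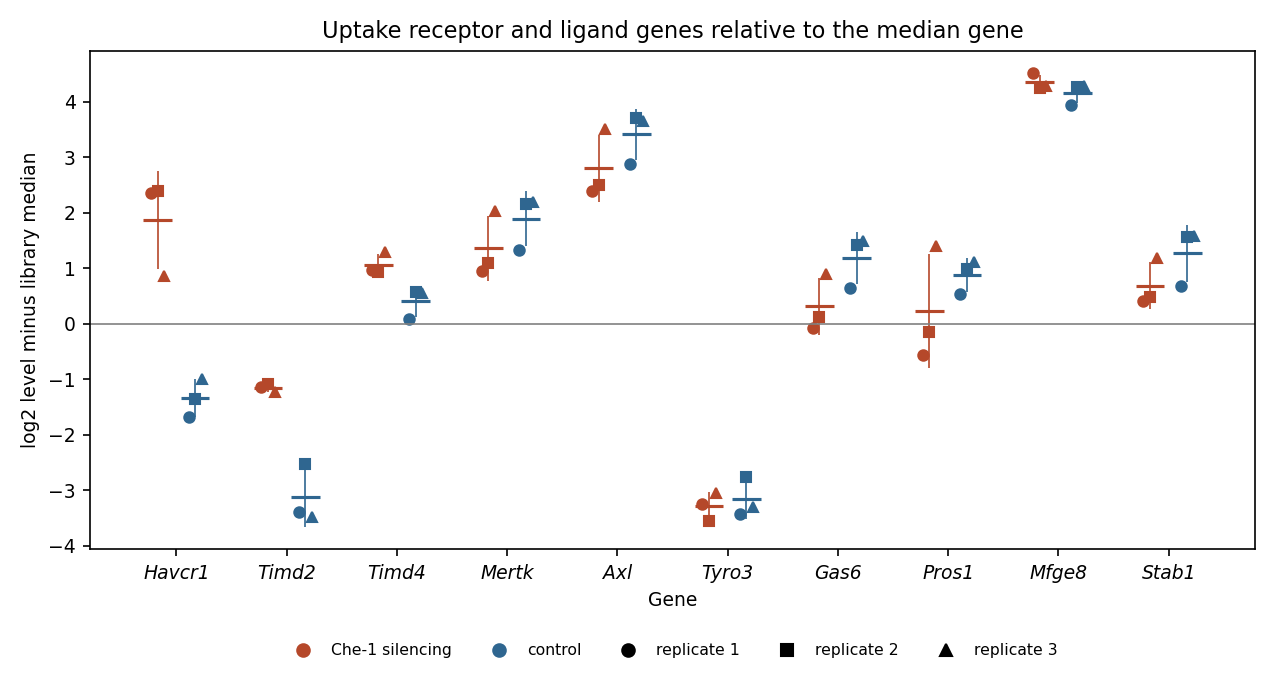
Log2 level minus the library median for the 10 genes, Che-1 silencing libraries left and control libraries right for each gene, with bars at the group means and lines of 1 SD. Only the 3 TIM genes separate the groups without overlap. In Timd4, Mertk, Axl, Tyro3, Gas6, Pros1 and Stab1 Che-1 silencing replicate 3 lies above replicates 1 and 2.

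Counted by group, 9 of the 10 genes had no overlap and were higher in those labelled Che-1 silencing per spike-in, where 68.0% of the 14606 tested genes did so. On the relative scale 3 of the 10 did so, Havcr1, Timd2 and Timd4, against 20.5% of all tested genes, and 0 of the 10 lay wholly below, against 19.7%. The median difference of the 10 was 1.20 log2 units on the spike-in scale (1.54 for all tested genes) and -0.33 on the relative scale (0.01 for all). Since the genes were picked knowing this contrast, nothing is read from these counts. On the spike-in scale the coefficient of variation of normalized counts ran from 27.3% for Tyro3 to 74.6% for Havcr1 among libraries labelled Che-1 silencing, and from 7.59% for Timd4 to 27.8% for Timd2 among control libraries. On the relative scale the control libraries had the larger SD in 5 of the 10 genes, such as Timd2 (0.07 among libraries labelled Che-1 silencing, against 0.53 among control libraries).

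Shares of the receptor sum show which receptor was most abundant in each library. Of the summed level per kilobase of the 6 TIM and TAM receptors, Havcr1 supplied 45.1%, 45.0% and 14.2% in libraries labelled Che-1 silencing, against 4.64%, 3.44% and 4.45% in the control libraries. Axl supplied 24.8%, 25.4% and 46.6% in libraries labelled Che-1 silencing, against 57.7%, 60.6% and 59.5% in the control libraries. The 3 TIM receptors together came to 65.8%, 64.6% and 36.2% in libraries labelled Che-1 silencing and to 22%, 18.1% and 18.5% in the control libraries. Timd4 supplied 18.1%, 17.1% and 19.9% in libraries labelled Che-1 silencing, against 16.5%, 13.7% and 13.6% in the control libraries. In mean level per kilobase the order in libraries labelled Che-1 silencing was Havcr1 (1784), Axl (1400), Timd4 (840), Mertk (514), Timd2 (118) and Tyro3 (18.1), in which Havcr1 and Axl differed by less than the SD of Havcr1. Havcr1 was the highest in replicates 1 and 2 and only the fourth in replicate 3, while Axl, Timd4, Mertk, Timd2 and Tyro3 kept their order in all 3. In the control libraries it was Axl (721), Mertk (252), Timd4 (177), Havcr1 (50.9), Timd2 (9.55) and Tyro3 (6.59), and all 3 control libraries had that order. Exon lengths were those of GENCODE M21 and not of the build the authors used.

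**Figure D4:**
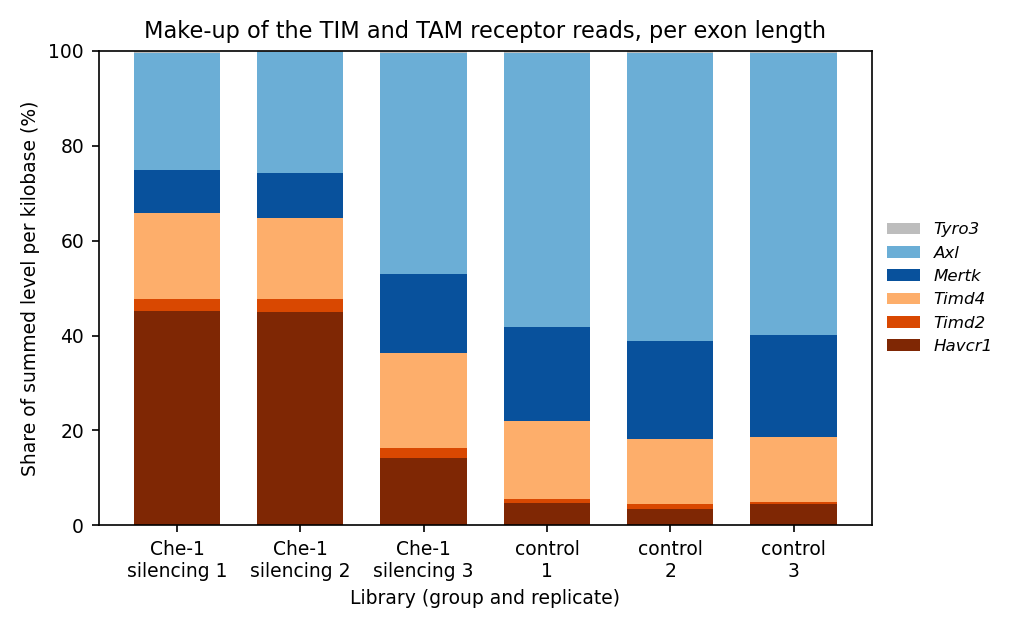
Share of each receptor in the summed normalized counts per kilobase of exon of the 6 TIM and TAM receptors, 1 bar per library, Che-1 silencing libraries left. The TIM share is 65.8%, 64.6% and 36.2% in libraries labelled Che-1 silencing and between 18.1% and 22% in control libraries.

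Among 7303 genes that reached the median level of 621 normalized counts, the 5 nearest to the course of Havcr1 over the 6 libraries, by root mean square difference of mean-centred log2 levels, were Tex14 (0.27 log2 units), Cep55 (0.35), Ddx43 (0.35), Basp1 (0.37) and Car13 (0.40). Cep55 encodes a midbody protein of cell division and Tex14 a protein of the intercellular bridge of germ cells. Markers of germinal centre B cells, the B cells that divide and mutate their antibody genes in lymphoid follicles, were highest per spike-in in Che-1 silencing replicates 1 and 2. The exception was Fas, a death receptor, which was highest in replicate 3. The median gene too was higher per spike-in in replicates 1 and 2 (log2 level 9.65 and 10.38) than in replicate 3 (9.1). None of these markers was among the 5 genes nearest to Havcr1. All 9 tested markers rose per spike-in (limma, adjusted p up to 0.05; 66.7% of all tested genes rose), also with any single library left out, with a median difference of 5.75 log2 units. Their summed level was 109649, 161056 and 5420 normalized counts in libraries labelled Che-1 silencing, against 1695, 1360 and 1501 in the control libraries. On the relative scale the median difference of these markers was 4.22 log2 units, and 0 of the 9 were called by limma. Bcl6, a transcriptional repressor of these cells, had a relative difference of 1.64 log2 units and Fas one of 0.48, both with overlap between the groups. No germinal centre marker was at 0 in any library. Relative to the median gene, the marker list had a median difference from the control mean of 5.57 over Che-1 silencing replicates 1 and 2. In replicate 3 it was 1.39. The same differences were 3.71 and 2.2 for Havcr1 and 2.01 and 1.9 for Timd2. The part of these cells in the levels of Havcr1 and Timd2 was not tested.

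Macrophage markers did not share one course. Of 14 tested, 7 rose and 1 fell per spike-in, where 66.7% of all tested genes rose and 0.746% fell, with 3 rises without control replicate 2 or 3, and with a median of 1.22 log2 units, and their summed level was 44368, 80552 and 54686 normalized counts in libraries labelled Che-1 silencing, against 19869, 21613 and 24701 in the control libraries. Csf1r, the receptor for macrophage colony-stimulating factor, rose by 2.06 log2 units and the lysosomal glycoprotein Cd68 by 2.17, while Cd163, the haemoglobin scavenger receptor, fell by 2.07, a call that ended without Che-1 silencing replicate 1 or 2. Relative to the median gene, Mrc1, the mannose receptor, had a log2 difference from the control mean of -2.38 over Che-1 silencing replicates 1 and 2 and of 0.41 in replicate 3. Csf1r (0.62 and 0.35) and Cd68 (0.62 and 0.67) lay above the control mean in both. Mertk, Axl, Gas6, Pros1 and Stab1 also lay lower in replicates 1 and 2 (-0.87, -0.96, -1.17, -1.23 and -0.82) and closer to the control mean in replicate 3 (0.13, 0.09, -0.28, 0.52 and -0.10). Against control replicates 2 and 3 alone, replicate 3 was at -0.15, -0.18, -0.55, 0.35 and -0.39 for these genes. Marker lists of other cells also lay lower in replicates 1 and 2 than in replicate 3. Against the mean of all control libraries, the list medians were -2.67 over replicates 1 and 2 and 0.58 in replicate 3 for neutrophils. They were -1.76 and 0.73 for megakaryocytes, -1.87 and -0.21 for dendritic cells, and -0.92 and 0.51 for the whole macrophage list. Vsig4, a complement receptor of resident macrophages, was at 0 reads in 1 library, Che-1 silencing replicate 1. Endothelial markers, which bear on Stab1, had a median relative difference of -1.13. Per spike-in, 1 of 8 rose and 1 of 8, Emcn, fell. Neither call held without control replicate 2 or 3 or without Che-1 silencing replicate 2. The fall also ended without Che-1 silencing replicate 1. Emcn had 35.8, 101 and 51.4 normalized counts in libraries labelled Che-1 silencing and 33.9, 793 and 926 in the control libraries. The summed endothelial level was 6881, 12451 and 9529 normalized counts in libraries labelled Che-1 silencing and 6714, 8765 and 9969 in the control libraries, and none of these markers was at 0. The part of these cell types in the TAM, ligand and stabilin values was not tested. Among the other marker lists, 6 of 6 B cell, 4 of 6 plasma cell, 5 of 8 T cell, 1 of 6 dendritic and 2 of 6 stromal genes rose, where 66.7% of all tested genes did, and 0 of 7 neutrophil, 0 of 5 erythroid and 0 of 5 megakaryocyte genes did. With single libraries left out, the rises ran from 1 to 6 for B cell, from 2 to 4 for plasma cell, from 2 to 6 for T cell, from 0 to 2 for dendritic and from 0 to 2 for stromal genes. They stayed at 0 for neutrophil and erythroid genes and ran from 0 to 1 for megakaryocyte genes. Without Che-1 silencing replicate 3, where 234 of all tested genes fell, Clec9a (dendritic), Cxcl12 (stromal), Camp (neutrophil), Alas2 and Epb4.2 (both erythroid) fell.

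Beyond the 10, 92 symbols of the uptake pathway were listed by role, and 84 of them were tested. Per spike-in, 56 rose and 1 fell (limma, adjusted p up to 0.05), that is 66.7% rises, the same share as the 66.7% of all 14606 tested genes, where 0.746% fell. On the relative scale 0 rose and 0 fell, where 0.0% of all genes rose and 0.0274% fell, although 34 of the 84 had an unadjusted p under 0.05 by limma, as did 35.1% of all tested genes. There edgeR called 0 in either direction and DESeq2 called 17 higher and 11 lower. Rises on the spike-in scale numbered 19 without control replicate 2, 21 without control replicate 3 and 34 without Che-1 silencing replicate 1. Without Che-1 silencing replicate 3, 17 rose and 27 fell on the relative scale, and without control replicate 1, 0 rose and 1 fell.

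Of 19 other receptors tested 8 rose (42.1%, where 66.7% of all tested genes rose), with a median of 0.96 log2 units on the spike-in scale and -0.57 on the relative scale. Msr1, the class A scavenger receptor of macrophages, rose, with 1520, 2134 and 446 normalized counts in libraries labelled Che-1 silencing and 78.4, 89.8 and 107 in the control libraries (3.62 log2 units, SE 0.53, limma adjusted p = 1.8e-09). Its relative difference of 2.09 was not called (limma adjusted p = 0.0729). Lrp1, the large endocytic receptor that engages calreticulin, had a spike-in difference of -0.03 (SE 0.58, limma adjusted p = 0.963), which turned positive without Che-1 silencing replicate 1 (0.44) and without control replicate 3 (0.04). Stab2, the relative of Stab1 on sinusoidal endothelium, had a difference of 0.87 (SE 0.59, limma adjusted p = 0.173), near that of Stab1. The integrin chain Itgb3, a partner of Mfge8, had 1.12 (SE 0.59, limma adjusted p = 0.0782). Bai1, a phosphatidylserine receptor of phagocytes and neurons, was near the minimum level, at 7.4, 12 and 14.1 normalized counts in libraries labelled Che-1 silencing and 25.7, 8.46 and 14.2 in the control libraries.

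Among the other ligands and opsonins 5 of 11 rose (45.5%) and 1 fell, where 66.7% of all tested genes rose and 0.746% fell. C1qa, a chain of the complement factor that coats dying cells, had 14493, 20227 and 8008 normalized counts in libraries labelled Che-1 silencing and 1252, 1728 and 1870 in the control libraries (3.06 log2 units, SE 0.58, limma adjusted p = 6.5e-06). Calr, a chaperone that acts as an uptake signal at the cell surface, rose by 2.35 (SE 0.58, limma adjusted p = 4.7e-04). The relative differences of C1qa (1.53) and Calr (0.81) were not called. Thbs1, a bridging matrix protein of platelets, had a spike-in difference of 0.59 (SE 0.58, limma adjusted p = 0.355), and Tub, reported as a Mertk ligand, one of -0.64 (SE 0.66, limma adjusted p = 0.377). Edil3, an integrin bridge like Mfge8, fell by 1.89 log2 units (SE 0.80, limma adjusted p = 0.0307), with 12.3, 2.4 and 3.85 normalized counts in libraries labelled Che-1 silencing and 3.51, 49.4 and 48.0 in the control libraries. Control replicate 1 lay among the libraries labelled Che-1 silencing, and the Edil3 call ended without control replicate 2 (limma adjusted p = 0.3) or 3 (limma adjusted p = 0.29) and without Che-1 silencing replicate 1 (limma adjusted p = 0.061) or 2 (limma adjusted p = 0.24).

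The later steps of uptake stood near the median gene as groups. Where 66.7% of all tested genes rose, 12 of 17 genes of attraction, exposure and restraint (70.6%) and 14 of 19 engulfment genes (73.7%) did so. Of 13 genes of digestion and lipid response 13 rose (100%), and of 5 genes of receptor shedding and vitamin K carboxylation 4 (80%). The medians, in that order, were 1.59, 1.56, 1.49 and 1.53 log2 units. Sirpa, the phagocyte receptor for the restraint signal Cd47, rose by 2.06 (SE 0.58, limma adjusted p = 0.00179). Cybb, the catalytic chain of the phagocyte oxidase, rose by 2.15 (SE 0.58, limma adjusted p = 0.00128), and the exchange factor Vav1 by 2.18 (SE 0.59, limma adjusted p = 0.00118). Cybb was also the gene nearest to Timd4 over the 6 libraries (0.05 log2 units), a likeness picked out after its values were seen. The lysosomal protease Ctsd rose by 2.53 (SE 0.58, limma adjusted p = 1.7e-04) and the lysosomal membrane protein Lamp1 by 2.37 (SE 0.58, limma adjusted p = 4.6e-04). Adam17, a protease that sheds Mertk from the cell surface, rose by 2.21 (SE 0.59, limma adjusted p = 0.00103).

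The calls of smaller rises in these roles depended on single libraries, as did calls over all tested genes. Those fell from 9745 rises to 3221 without control replicate 2 and to 3536 without control replicate 3. The differences stayed positive in these 2 runs, at 1.66 and 1.74 log2 units for Tmem30a and 1.34 and 1.39 for Cd24a. Abca1, the cholesterol exporter (1.75 log2 units), Adam10, a shedding protease (1.60), and Cd24a, a restraint signal (1.69), passed by limma with all libraries and lost their calls without control replicate 2 (limma adjusted p = 0.081, 0.13 and 0.13), control replicate 3 (limma adjusted p = 0.073, 0.12 and 0.13), Che-1 silencing replicate 1 (limma adjusted p = 0.067, 0.062 and 0.12) or Che-1 silencing replicate 2 (limma adjusted p = 0.056, 0.06 and 0.16). Dock2, a Rac activator of blood cells (1.56), lost its call without control replicate 2 (limma adjusted p = 0.12), control replicate 3 (limma adjusted p = 0.11) or Che-1 silencing replicate 1 (limma adjusted p = 0.052). Rac2, a blood-cell GTPase (1.89), and Tmem30a, a flippase subunit (1.74), lost theirs without control replicate 2 (limma adjusted p = 0.068 and 0.074) or 3 (limma adjusted p = 0.061 and 0.071). Ggcx, the carboxylase that Gas6 and protein S require, passed narrowly (1.15, SE 0.54, limma adjusted p = 0.0482), and its call ended without any one library other than Che-1 silencing replicate 3, with limma adjusted p-values between 0.059 and 0.18. Values that did not pass with all libraries were 0.23 for Gpr132, a lysolipid receptor, 0.97 for Siglecg, the Cd24a receptor, 0.84 for the exchange factor Trio, and 1.09 for the vitamin K reductase Vkorc1l1. Without Che-1 silencing replicate 3, Siglecg, Trio and Vkorc1l1 passed (limma adjusted p = 0.012, 0.049 and 0.0062), as did Vkorc1l1 without control replicate 1 (limma adjusted p = 0.02).

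**Figure D5:**
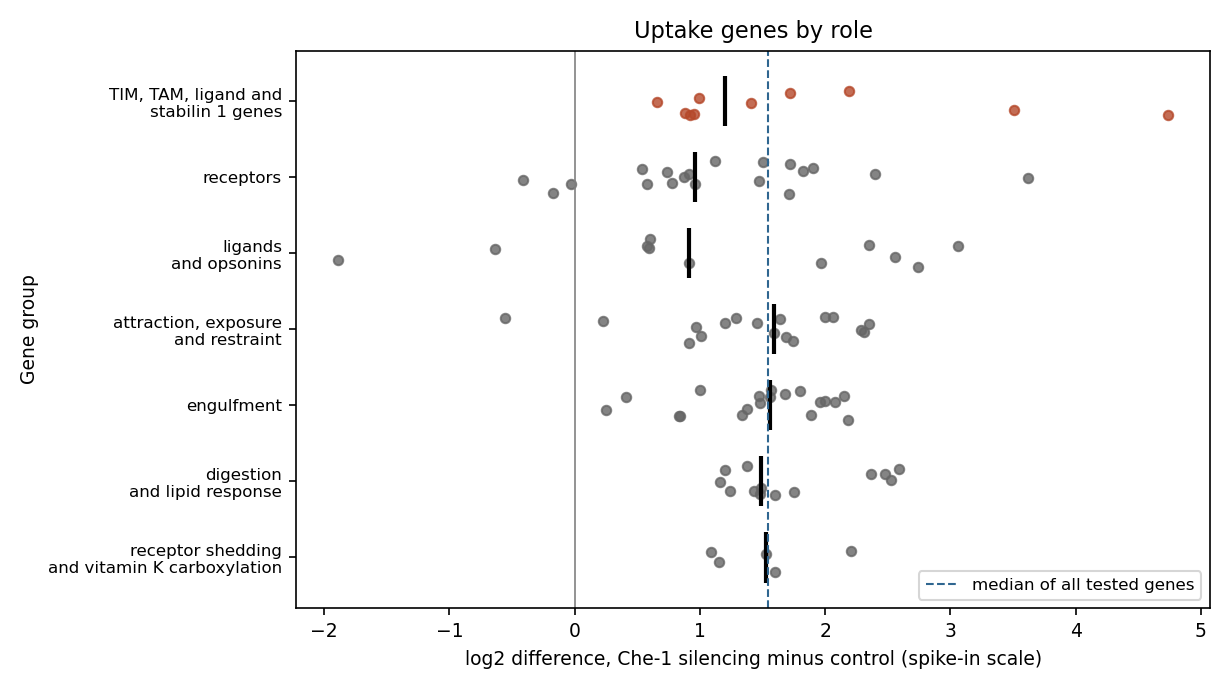
Log2 difference on the spike-in scale, Che-1 silencing minus control, for the 10 genes (top row) and the tested uptake genes by role, 1 point per gene, with a black bar at each group's median. The dashed line is the median of all tested genes at 1.54; receptors and ligands have medians of 0.96 and 0.91, and Havcr1 (4.74) and Timd2 (3.51) lie farthest to the right in the top row.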

How the data were processed

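Per the labels' protocols, total RNA of bone marrow was depleted of ribosomal RNA and made into stranded libraries. The submitters' processing notes name HTSeq, TopHat, Cufflinks and Cuffdiff and the build mm9, without versions. The authors deposited a count table of ERCC spike-in reads and a gene table of group means of counts divided by spike-in size factors (a normalized signal), with the authors' ratio (fold) of means, its log2 value, p-value and adjusted p-value, per the file headers. HTSeq summary rows held 0.0434% to 0.221% of each library's reads in the deposited spike-in count table. They stayed out of the spike-in totals, although 2 of them enter the deposited size factors (72 rows, 70 spike-ins).

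Each group mean was solved for the 3 whole counts behind it, with a tolerance of 1e-15 (relative) and 0.55 of the final digit. Unique solutions were found for 17078 of 17173 genes (99.4%), 29 group means needing the printed overall mean and ratio as well. In 1400 simulated means, 1354 had 1 solution and all 1354 were correct. The deposited means hold no value per library, so the main test was limma (3.58.1, R 4.3.3; trended eBayes) on log2(normalized count + 1) for 14606 genes with a mean of at least 10, with Benjamini-Hochberg adjustment over all of them at 0.05. Per spike-in, limma pooled the spread fully over genes of similar level (infinite prior degrees of freedom), so SEs do not show a gene's own spread; for relative levels the prior was 2.42. Differences on this scale understate the change of low genes. edgeR (4.0.16) and DESeq2 (1.42.0) on the recovered reads were alternatives. Only the limma fit of relative levels was run on simulated data, and not the spike-in fit, edgeR or DESeq2.

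The 10 genes and all lists were chosen with earlier results of these data known. Named pathway genes are, per role, the 3 highest in mean level, the 2 with the lowest p on the relative scale, and any that fell on the spike-in scale; the 5 nearest genes are named for Havcr1. Promoters came from RefSeq (GRCm38.p6), which matched all 10 genes, and exon lengths from GENCODE M21. Replicate numbers did not pair the libraries.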

Additional observations from a re-analysis of the deposited data

How the results depend on the processing

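For the 10 genes, the sign of the difference on both scales held in every alternative run except for Tyro3 on the relative scale, given above. Taking reads of the stretch shared with Havcr1 off Timd2, an alternative chosen after seeing the data, gave 1.57 in place of 1.97 for Timd2 on the relative scale. The counts moved more. Rises over all genes on the spike-in scale (9745) ranged from 3221 to 11014 with single libraries left out and came to 3447 with control replicates 2 and 3 summed. These 2 libraries differed far less than any other pair (mean chi-square per gene 2.09), and the labels name no separate mice for them. The share of 66.7% rises thus depends on counting them as separate libraries. Falls (109) ranged from 25 to 234 with single libraries left out, and were 52 at a minimum mean of 50, 53 by DESeq2 and 55 with those controls summed. Pathway rises (56) ranged from 19 to 59 with single libraries left out and were 21 with the controls summed. The 1 pathway fall was 0 at a minimum mean of 50 and with the controls summed, and 0 to 1 with single libraries left out.

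On the relative scale, rises over all genes (0) were 1 with a pseudocount of 0.1, 11 without a filter and 2280 by DESeq2, and ranged from 0 to 4036 with single libraries left out. Falls (4) were 12 without a filter and 1685 by DESeq2, and ranged from 4 to 3673. Pathway calls were 17 higher and 11 lower by DESeq2, and ranged from 0 to 17 and from 0 to 27 with single libraries left out. The replicate number did not pair the libraries (correlations of deviations 0.17, -0.15 and 0.18 for numbers 1, 2 and 3, and 3 of 6 libraries matched best to their own number). With the replicate block, there were 33 pathway rises and 0 falls per spike-in.

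Signs also turned for uncalled values: on the spike-in scale Lrp1 was 0.11 by edgeR and by DESeq2, and -0.34 to 0.44 with single libraries left out. On the relative scale Cd24a was -0.05 and Adam10 -0.02 with the controls summed, and Dock2 -0.01 at a minimum mean of 50. With single libraries left out, relative values ran from -0.96 to 0.02 for Itgb3, from -0.07 to 0.59 for Cd24a, from -0.03 to 0.12 for Dock2, from -0.02 to 0.26 for Adam10 and from -0.26 to 0.08 for Tyro3. The causes were not tested. Depth limits Tyro3 and Timd2 most, with 30 and 31 reads in the shallowest control library.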
